A study of Mus musculus with 12 samples.

Results

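The Magi and Dlg genes encode scaffold proteins of the membrane-associated guanylate kinase family, and they were described here by the c-Fos peaks that lay in or near them in CA1 neurons after kainic acid. The genes were chosen by symbol (Magi1, Magi2, Magi3, Dlg1, Dlg2, Dlg4 and Dlg5), which gave 7 of the 21523 protein-coding genes used. Peaks were assigned to a gene when their midpoint lay inside it or within 100 kb of it. The set was proposed with the peak positions known, so the counts below are descriptions and carry no test.

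The study profiled c-Fos binding in CA1 nuclei by CUT&RUN, in which an antibody steers a nuclease to bound chromatin and the released DNA is sequenced. All groups were C57BL/6 mice aged 3 to 4 weeks of the genotype CaMK2a-Cre/+; LSL-Sun1-GFP/+, in which Cre made under the CaMK2a promoter switches on a fluorescent nuclear envelope protein, and GFP-positive nuclei were sorted. The 12 samples formed 4 groups of 3 replicates: kainic acid (KA) with the c-Fos antibody, KA with rabbit IgG, PBS with the c-Fos antibody and PBS with rabbit IgG, each with a treatment of 2 to 3 h and 50000 nuclei per reaction. How many animals made up a replicate was not stated. The values used were the positions of the 3295 peaks of c-Fos against IgG after KA, 3294 of them on the 20 chromosomes used. The list held no height, score or value per library, so depth is unknown, no spread between replicates can be given, and the sorted cell type could not be checked against its markers. The PBS groups and their peaks were not analysed here, so none of what follows compares KA with PBS. CA1 is a field of pyramidal cells in the hippocampus, and kainic acid is a glutamate receptor agonist that makes neurons fire strongly.

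Scaffolds of this family line up receptors, adhesion proteins and signalling enzymes under the cell membrane through PDZ domains, and carry a guanylate kinase-like domain that binds other proteins. The Dlg proteins are named after the fly tumour suppressor Discs large. At excitatory synapses Dlg4 (PSD-95) and Dlg2 (PSD-93) hold NMDA receptors and AMPA receptor complexes in the postsynaptic density, Dlg1 (SAP97) takes part in receptor trafficking, and Dlg5 acts in cell polarity and adhesion. Among the Magi proteins, which also carry WW domains, Magi2 (S-SCAM) is a synaptic scaffold of excitatory and inhibitory synapses, whereas Magi1 and Magi3 are best known from epithelial cell junctions. c-Fos pairs with Jun proteins in the AP-1 transcription factor, which neurons assemble after strong firing and which often binds far from the start of a gene.

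The 4 stretches of reference sequence printed here were chosen because the positions of the peaks are given against the starts they precede. Each is the 250 bases before an annotated start, on the strand of its gene, from RefSeq (GRCm38.p6, the assembly that mm10 represents), with every CG in capitals. The first lies at chr5:19226796-19227045 on the plus strand, before the upstream start of Magi2, and the next at chr5:19907268-19907517, before its internal start.
Magi2, upstream start: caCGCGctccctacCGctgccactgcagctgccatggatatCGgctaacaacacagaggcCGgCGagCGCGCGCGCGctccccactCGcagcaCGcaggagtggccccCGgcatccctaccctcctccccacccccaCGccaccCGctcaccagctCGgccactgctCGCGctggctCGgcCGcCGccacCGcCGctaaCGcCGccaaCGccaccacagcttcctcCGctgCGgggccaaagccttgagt
Magi2, internal start: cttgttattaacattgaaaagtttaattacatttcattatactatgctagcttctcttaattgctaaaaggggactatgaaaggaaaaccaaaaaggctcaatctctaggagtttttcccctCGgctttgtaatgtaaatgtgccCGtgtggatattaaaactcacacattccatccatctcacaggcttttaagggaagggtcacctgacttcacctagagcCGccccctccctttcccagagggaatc
The third precedes the first annotated start of Dlg2 at chr7:91090536-91090785 on the plus strand.
Dlg2, first start: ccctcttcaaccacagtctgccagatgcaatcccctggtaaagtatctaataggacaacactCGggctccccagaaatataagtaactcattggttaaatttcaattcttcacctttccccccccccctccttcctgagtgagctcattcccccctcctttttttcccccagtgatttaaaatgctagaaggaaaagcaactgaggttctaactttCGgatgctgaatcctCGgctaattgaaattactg
The last belongs to Gm52766, a long noncoding RNA gene on the minus strand within Magi2, at chr5:19745534-19745783. It is shown since a c-Fos peak covered all 250 of its bases.
Gm52766, start: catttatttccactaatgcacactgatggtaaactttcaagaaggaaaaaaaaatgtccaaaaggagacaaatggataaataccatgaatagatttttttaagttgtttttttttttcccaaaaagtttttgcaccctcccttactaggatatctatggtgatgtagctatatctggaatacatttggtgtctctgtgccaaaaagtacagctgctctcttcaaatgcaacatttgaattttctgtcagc
The upstream window of Magi2 had 72% G and C and 29 CG pairs, and that of its internal start 41.2% and 3. Over the 32851 windows of the table the medians were 52.4% and 6. For the 3 starts of Dlg2 the share of G and C ran from 42.8 to 45.6% with 1 to 3 CG pairs.

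Peaks were found at 3 of the 7 genes, and nearly all of them were inside 2 synaptic scaffold genes. Magi2 held 15 peaks, Dlg2 held 8, and 1 peak lay beside Dlg1. Magi1, Magi3, Dlg4 and Dlg5 had none inside or within 100 kb. By the same rule, 21.8% of all protein-coding genes had a peak, and 5.52% had one inside. The median gene of the set and the median of all protein-coding genes both had 0 peaks inside.

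**Figure D1:**
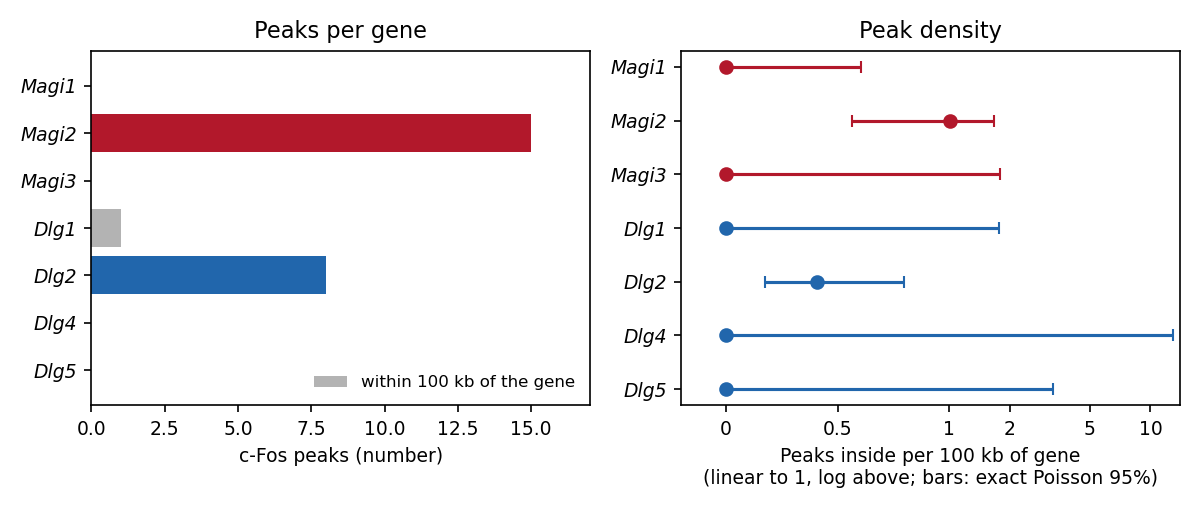
Left, number of c-Fos peaks inside each gene (red for Magi, blue for Dlg) and within 100 kb of it (grey). Right, peaks inside per 100 kb of gene length with exact Poisson 95% intervals, on an axis that is linear up to 1 and logarithmic above. Magi2 with 15 peaks and Dlg2 with 8 stand out, and the interval of a gene without peaks widens as the gene gets shorter.

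Magi2 lay on chromosome 5 from 19219387 to 20704792 (mm10, plus strand), a length of 1485 kb. Its 15 peaks gave 1.01 peaks per 100 kb of gene (exact Poisson 95% interval 0.565 to 1.67). By number of peaks inside it was number 3 among the 21523 protein-coding genes, and by density number 8 among the 227 genes of 500 kb or more. In that length class 63.4% of genes had a peak inside and 68.7% had one inside or within 100 kb, the median density was 0.119 and the 90th percentile 0.441 per 100 kb. A peak inside a gene of this size was thus common, and the density of Magi2 was above the 90th percentile of its class.

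Dlg2 lay on chromosome 7 from 90476188 to 92449246 (plus strand) and was longer, with 1973 kb. It held 8 peaks, or 0.405 per 100 kb (interval 0.175 to 0.799), and was number 26 of the 227 in density. This was above the class median and below its 90th percentile. Counted from its first annotated start (an alternative added with the data in view), Dlg2 held 7 peaks in 1358 kb. This was 0.515 per 100 kb (interval 0.207 to 1.06), a value above that percentile. The percentile was taken over whole genes, and the other genes of the class were not shortened this way. The rank of Dlg2 by this count is thus not known. Over the whole gene, the intervals of Magi2 and Dlg2 overlapped between 0.565 and 0.799, while each density lay outside the interval of the other gene. The difference was not tested, since the choice of genes used these counts.

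Magi1, the remaining gene of the set in this length class, lay on chromosome 6 from 93675453 to 94283929 (minus strand, 608 kb). It had 0 peaks, as had 83 of the 227 genes of the class. A count of 0 allows up to 0.493 peaks per 100 kb (3 counts over the gene), which is below the lower bound of 0.565 for Magi2 and above the value of Dlg2. The exact Poisson upper bound, 0.606, is above the lower bound for Magi2, so the separation of the pair depends on the bound used. Both annotated starts of Magi1 lay 370.2 and 371 kb inside this span. From the first of them to the 3′ end the gene measured 238 kb, outside the class of 500 kb or more, and a count of 0 then allows up to 1.26 peaks per 100 kb, above the density of Magi2. The nearest peak was 355 kb beyond its 3′ end, and on the 5′ side none lay closer than 934 kb.

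Dlg1 and Magi3 were of nearly equal length and had no peak inside. Dlg1 lay on chromosome 16 from 31663443 to 31873356 (plus strand, 209.9 kb) and Magi3 on chromosome 3 from 104013259 to 104220406 (minus strand, 207 kb). In the class of 200 to 500 kb, 36.2% of 763 genes had a peak inside. The limits from a count of 0 were 1.43 and 1.45 peaks per 100 kb, so a density as high as that of Magi2 could not be told from none. Dlg1 had 1 peak 64.4 kb upstream of its 5′ end, at 31598378 to 31599705. This peak was closer to other genes, 19.1 kb from the protein-coding gene Gm536 and 5.07 kb from the long noncoding RNA gene Gm34256. The peak nearest to Magi3 was 329.6 kb beyond its 3′ end.

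Dlg5 and Dlg4 were shorter. Dlg5 lay on chromosome 14 from 24133953 to 24245920 (minus strand, 112 kb) and its nearest peak was 375 kb beyond the 3′ end. In the class of 50 to 200 kb, 12.4% of genes had a peak inside. Dlg4 lay on chromosome 11 from 70017203 to 70045535 (plus strand) and spanned 28.3 kb. In the class under 50 kb, 1.68% of genes had a peak inside. Dlg4, which encodes the most studied scaffold of the postsynaptic density, had its nearest peak 606 kb upstream of the gene. A count of 0 allows up to 2.68 peaks per 100 kb in Dlg5 and 10.6 in Dlg4, which says little about either. With the rule's limit of 100 kb, the value just inside it was the 64.4 kb of Dlg1, and the values just outside were the 329.6 kb of Magi3 and the 355 kb of Magi1.

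**Figure D2:**
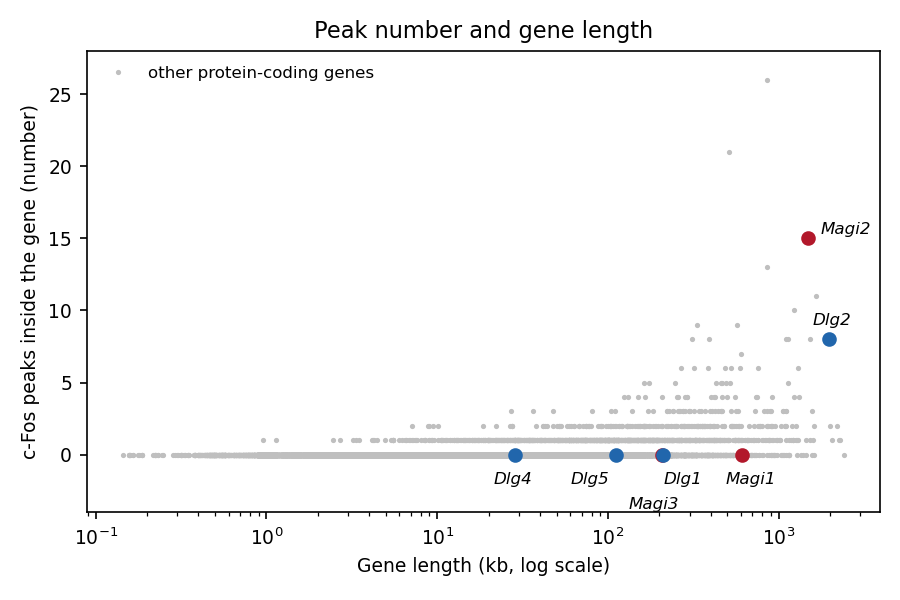
Peaks inside each protein-coding gene (vertical axis, number) against gene length (horizontal axis, kb, log scale), with Magi genes in red, Dlg genes in blue and all other genes in grey. Magi2 (15 peaks in 1485 kb) and Dlg2 (8 in 1973 kb) are among the longest genes, and Magi1 has 0 peaks at 608 kb.

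Within Magi2 the peaks gathered toward the 3′ end. The first 50% of the gene held 1 peak and the last 50% held 14. The last 20% (297 kb) held 10 of the 15 (66.7%), a density of 3.37 per 100 kb (interval 1.61 to 6.19). This window was not in the plan and was chosen with earlier results known, and its interval covers counting error over peaks alone. Over the peaks inside other protein-coding genes of 500 kb or more, 50 of the 295 whose gene had a known strand (16.9%) lay in the last 20%. The median peak of Magi2 sat at 90.5% of the gene, counted from its 5′ end. This was the highest of the 15 genes of 500 kb or more with a known strand and at least 5 peaks. Clstn2 (85.5%, 6 peaks) and Dab1 (78.4%, 5 peaks) came next. In Clstn2 the last 20% held the same share of peaks as in Magi2, 66.7%. Among the remaining genes of the 15 this share ran from 0, as in Pde4d, to 40% in Dab1. Long genes without a known strand could not be ranked, among them Csmd1 (11 peaks) and Dlgap2 (6 peaks).

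The split also followed the annotated starts of Magi2. Its upstream start lay 7.66 kb into the gene and its internal start 688 kb into it. Between them, 1 peak was found in 680.5 kb, or 0.147 per 100 kb (interval 0.00372 to 0.819). From the internal start to the 3′ end, 14 peaks were found in 797 kb, or 1.76 per 100 kb (interval 0.960 to 2.95). The intervals did not overlap, but they cover counting error over peaks alone, and the division was looked at after the positions were known. Which of the transcripts CA1 neurons make was not measured.

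Along the gene, the peak between the starts came first, 527 kb from the 5′ end (19745526 to 19746483, 958 bp wide). Its midpoint was 471 bp upstream of the start of Gm52766, the noncoding gene whose sequence is printed above, and 161.5 kb upstream of the internal start of Magi2. Beyond that start, 3 peaks lay between 751 and 828 kb, the closest of them 62.8 kb downstream of the internal start. A lone peak followed at 1089 kb (20307471 to 20309095). The next pair, at 1243 and 1274 kb, included the widest peak of the gene (20460920 to 20463697, 2778 bp).

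The densest stretch came after these. Between 1344 and 1364 kb, 4 peaks (20562268 to 20583951) were separated by 5.95, 9.86 and 4.28 kb. A peak at 1396 kb lay 31.8 kb from the peak before it and 35.7 kb from the one after. The shortest distance in the gene, 3.57 kb, separated the peaks at 1431 and 1435 kb (20650082 to 20655348). The last peak, at 1453 kb (20670962 to 20673454), was 2493 bp wide and lay 97.8% along the gene. The shortest distance from a peak to an annotated Magi2 start was thus 62.8 kb. Some of these peaks lay near other annotation. The pseudogene Gm3544 was 5.44 kb from one of the 4 clustered peaks, and the long noncoding RNA gene Gm52763 was 8.86 kb from the last.

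**Figure D3:**
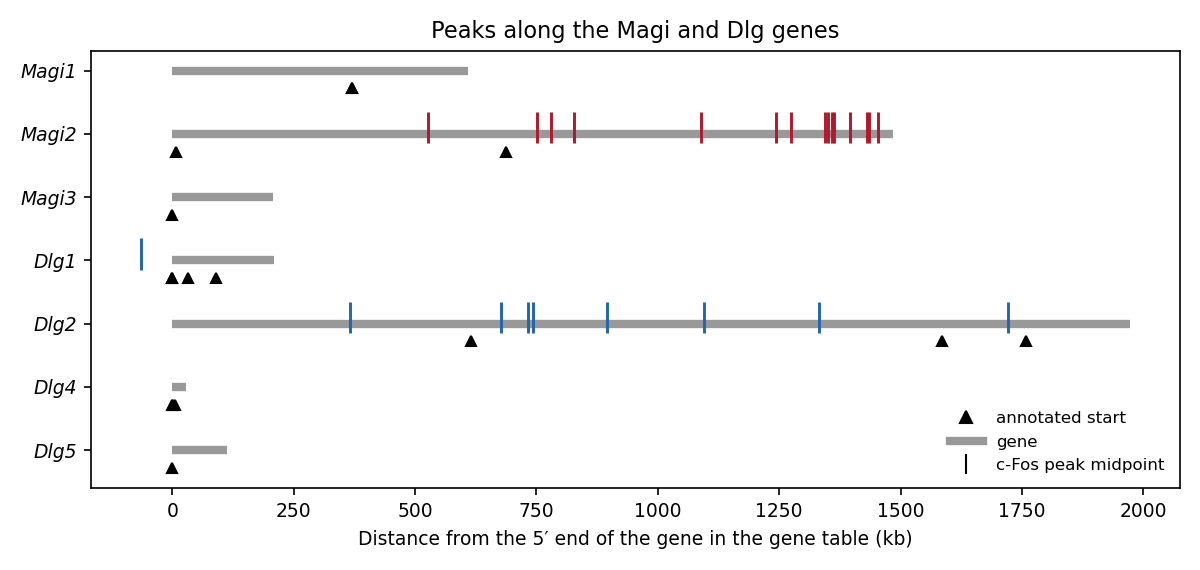
Midpoints of c-Fos peaks (vertical ticks) along each gene (grey bar) by distance in kb from the 5′ end of the gene, with annotated starts as triangles. The Magi2 ticks crowd toward the 3′ end, with 10 of 15 in the last 20% of the gene, whereas those of Dlg2 are spread along it and the Dlg1 peak lies 64.4 kb before the gene.

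Dlg2 showed another layout. Its 8 peaks were spread from 18.5 to 87.3% of the gene with a median at 41.5%, and 1 of the 8 lay in the last 20%. Among the 15 long genes ranked above, its median position was number 13. The first annotated start in the promoter table was 615 kb inside the gene as the gene table draws it, and the others lay 1586 and 1759 kb inside. Upstream of the first start, 1 peak lay in 615 kb (90841003 to 90842170). Between the first start and the next, 6 peaks lay in 972 kb, or 0.618 per 100 kb (interval 0.227 to 1.34). The closest of these was 63.5 kb downstream of the first start, and a pair followed at 733 and 744 kb of the gene (91208084 to 91220465), 11.2 kb apart. The widest peak (91369436 to 91371964, 2529 bp) came at 895 kb, and single peaks at 1095 and 1331 kb. The last, at 1722 kb (92197258 to 92198531), was 37.1 kb upstream of the third start, the shortest distance from a peak to an annotated start in either gene. From the third start to the 3′ end no peak lay in 214 kb.

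Peaks inside Magi2 were a median of 655.5 kb from the nearest annotated start of the gene, and those inside Dlg2 a median of 189 kb. For the 295 peaks inside other genes of 500 kb or more that had an annotated start, the median was 231 kb. Distances in the pair thus lay on both sides of the value for other long genes. Longer genes leave room for longer distances, and the lengths of Magi2 (1485 kb) and Dlg2 (1973 kb) were not allowed for. None of the 16 promoter windows of the 7 genes shared a base with a peak.

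Spacing and width were further measures. The choice of genes did not use width, but it used peaks per gene length, on which spacing depends. Magi2 had 1.01 and Dlg2 0.405 peaks per 100 kb, beside 0.199 pooled over the class of 500 kb or more. Closer neighbours than in other long genes follow in part from these densities. At the distance planned for clustering, which joined gaps up to 11.2 kb in these genes, 6 of 15 peaks in Magi2 (40%) and 2 of 8 in Dlg2 (25%) had a neighbour, beside 15.2% in other genes of 500 kb or more and 13.8% of all peaks. In Magi2 13 of 15 peaks (86.7%) had another peak within 50 kb, and in Dlg2 2 of 8 (25%). Of the peaks inside other genes of 500 kb or more, 43.7% had one, and of all peaks 33.1%. Within 5 kb the counts were 4 of 15 in Magi2 and 0 of 8 in Dlg2, beside 7.61% in the other long genes. The share in Magi2 was thus above that of the other long genes at all 3 distances, whereas that in Dlg2 was above it at the planned distance and below it at the others. Gaps between neighbouring peaks ran from 3.57 to 261 kb in Magi2 (median 31.5 kb, 14 gaps) and from 11.2 to 391 kb in Dlg2 (median 200.5 kb, 7 gaps). Neighbours were thus more closely packed in Magi2, the gene with the higher density, although the ranges of the gaps overlapped. No neighbours in either gene were as close as 500 bp, and merging peaks at that distance left 15 and 8.

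Widths in Magi2 ran from 727 to 2778 bp with a median of 1605 bp, and in Dlg2 from 981 to 2529 bp with a median of 1266 bp. The median of all peaks was 1341.5 bp and that of peaks inside other genes of 500 kb or more 1369 bp. In Magi2 9 of 15 peaks and in Dlg2 3 of 8 were wider than the median of all peaks. Peaks of 2 kb or more made up 5 of 15 (33.3%) in Magi2 and 1 of 8 in Dlg2, beside 15.2% in the other long genes. The ranges overlapped, and no test was made because peaks of 1 gene are not independent. Peaks covered 24283 bp of Magi2 (1.63% of the gene) and 11019 bp of Dlg2 (0.558%).

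**Figure D4:**
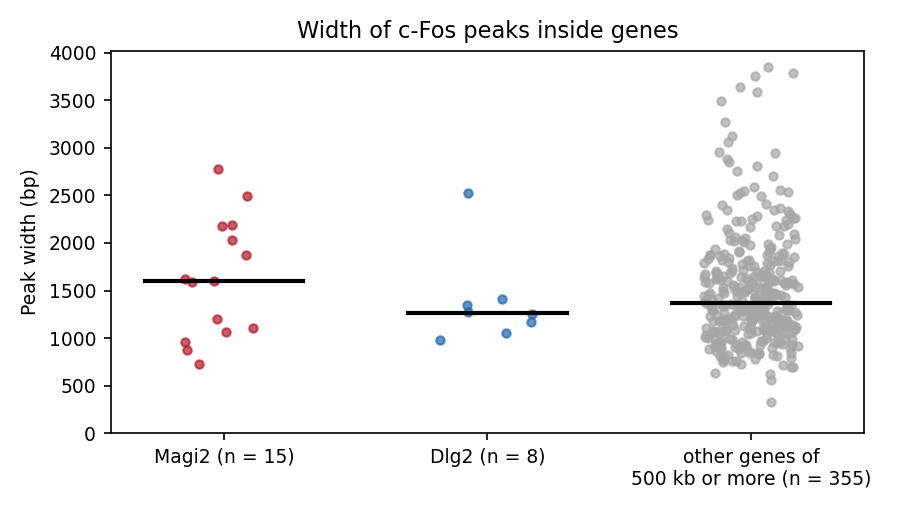
Width in bp of each c-Fos peak (points) inside Magi2, inside Dlg2 and inside other protein-coding genes of 500 kb or more, with black bars at the medians of 1605, 1266 and 1369 bp. The values of Magi2 and Dlg2 lie within the range of the other long genes.

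The surroundings of Magi2 were empty of peaks. The nearest peak outside the gene was 2618 kb upstream of it, and on the 3′ side the nearest was 4138 kb away. The peak-free stretch from the last Magi2 peak to the next one was 4171 kb long and contained 50 other protein-coding genes, and the one before the first Magi2 peak was 3144 kb long and contained 7. Of the 3254 distances between neighbouring peaks on autosomes, 1.78% were longer than the former and 3.90% longer than the latter, and the median was 321 kb. Dlg2 had its nearest outside peaks 706 kb upstream and 748 kb downstream, and within 1 Mb on either side there were 5 peaks, or 0.25 per 100 kb. Dlg4 lay in a peak-free stretch of 2534 kb with 93 other protein-coding genes. Those around Magi1, Dlg1, Dlg5 and Magi3 measured 1897, 1580.1, 1478 and 996 kb. Of the autosomal distances, 6.12% were longer than that at Dlg4, and 10.6, 13.8, 15.1 and 23.5% longer than those at the other genes, in that order. A gene without a peak inside always lies in such a stretch, and longer stretches have room for more genes. The median over all distances is thus not a like comparison for these genes.

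Promoter sequence was searched for the letters of the AP-1 motif, TGANTCA, on both strands, in windows from 250 bases before to 50 after each annotated start. All 7 genes matched the table, with 16 windows. None of the 16 held TGANTCA, which 7.81% of all 32851 windows held, nor TGACTCA, a narrower form included in it (5.20% of all). The related pattern TGANNTCA, with 1 base more between its arms, was found in 4 of the 16, at Magi2, Dlg1 and, in 2 windows, Dlg2, beside 14.1% of all windows. In Magi2 it was TGACTTCA at position -43 from the internal start, in the sequence printed above. The window of Gm52766 held neither pattern, although 258 of its 300 bases lay in a peak. Of the 298 windows of any gene wholly inside a peak, 19.1% held TGANTCA, against 7.71% of windows that shared no base with one. For TGANNTCA the same shares were close to each other, 13.8% and 14.1%. A match is a run of letters, and the remaining sequence of the Magi2 and Dlg2 peaks was not analysed here.

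Genes with the peak density most like that of Magi2, by difference in peaks per 100 kb within the class of 500 kb or more, were Clstn2 (1.02, 6 peaks), Kcnd2 (0.972, 5 peaks) and Atrnl1 (1.15, 6 peaks). All 3 were shorter, with 589, 514 and 522 kb. For Dlg2 they were Exoc4 (0.414, 3 peaks), Ptprk (0.383, 2 peaks) and St6galnac3 (0.380, 2 peaks). By number of peaks in that class, Dlgap1 (26), Syt1 (21), Magi2 (15), Celf2 (13) and Csmd1 (11) led. Dlgap1 encodes a protein that binds the guanylate kinase domain of Dlg4, and Syt1 the calcium sensor of vesicle release.

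Other genes of the same protein complexes were counted by the same rule. Of 33 genes for binding partners of PSD-95 and Magi proteins, 18 had a peak inside or within 100 kb and 12 had one inside, where 21.8% and 5.52% of all protein-coding genes had. The list was written with earlier results of these data known. It holds 9 genes of 500 kb or more, a class in which 63.4% of genes had a peak inside, so the shares over all genes are not a like comparison. Its median gene had 0 peaks inside, as over all genes. Most peaks were in Dlgap1 (26 peaks, 3.05 per 100 kb), Anks1b (8, 0.727), a scaffold of the postsynaptic density, and Dlgap2 (6, 0.792). Grin2a and Grin2b, which encode NMDA receptor subunits, held 5 each (1.17 and 1.09 per 100 kb), and Nlgn1, a postsynaptic adhesion protein, held 4 (0.439). Long partner genes without a peak were Adgrb3, Erbb4 and Grik2, of 767, 1077 and 696 kb. These 3 were picked out after their values were seen.

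Of 15 other genes of the guanylate kinase scaffolds and their Lin7 partners, 4 had a peak inside or within 100 kb and 2 had one inside, among them Mpp4 with 1 peak. None of the 15 was as long as 500 kb. Dlg3, which encodes the synaptic scaffold SAP102, had none. At 51 kb it falls in the class of 50 to 200 kb, where 12.4% of genes had a peak inside. The gene lies on the X chromosome, which held 21 of the 3294 peaks. A list of 15 polarity genes joined the Scribble and Par groups with the Crb genes, Patj and Vangl2. Of these proteins, Scribble and the Llgl proteins act with Dlg proteins in cell polarity. By the rule 6 of the 15 had a peak and 3 had one inside, Pard3, Pard3b and Patj with 1 each. Pard3 and Pard3b are the 2 genes of that list of 500 kb or more, with 0.182 and 0.0996 peaks per 100 kb. Over all protein-coding genes, 21.8% had a peak by the rule and 5.52% had one inside. The median gene of both lists had 0 peaks inside.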

How the data were processed

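CUT&RUN for c-Fos or IgG was run on sorted CA1 nuclei after KA or PBS, with 3 samples in each of 4 groups, assigned from the sample titles. Tools named in the submitters' processing notes are SEACR 1.1, bedtools 2.27.1, Bowtie2 2.2.9 and Trimmomatic 0.36, beside the builds mm10 and sacCer3, with no role or settings. The deposited file lists chromosome, start and end of each peak in base pairs, with no score. Its name calls the peaks replicated, and it was treated as 1 list for the KA c-Fos group. Neither the peak threshold nor the way replicates were combined is stated in the sources used here, and weaker sites are missing from every count.

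Peaks on chromosomes 1 to 19 and X were compared, by midpoint and in 1-based positions, with protein-coding genes of a RefSeq table (GRCm38.p6), leaving out 108 that start below 3000000, where coordinates appear to refer to unplaced scaffolds. Strand and annotated starts came from the RefSeq promoter table, which is not complete. Exact Poisson 95% intervals and limits from a count of 0 (3 counts) cover counting error over peaks only. The 7 genes, the gene lists and the measures were chosen with earlier results of these data known, and no test was made. Genes outside the set were named by rule: the 5 genes of 500 kb or more with most peaks inside, the 3 nearest in density to each member that held peaks, genes beside flank peaks, and up to 6 per list with most peaks inside; exceptions are stated in the text, and 1 gene the rule picks is not reported here. Alternatives were merging within 500 bp, the wider peaks, any overlap, other flanks, and the nearest coding gene only. Counting was tested on simulated peaks. Python 3.11.15, numpy 2.4.6, pandas 2.3.3 and scipy 1.17.1 were used.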

Additional observations from a re-analysis of the deposited data

How the results depend on the processing

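No paired analysis was possible because replicates share 1 list, and for the same reason no replicate could be left out. Protein lengths and identities, planned at first, were not run. The number of genes with a peak (3 of 7) was 2 or 3, and the 23 peaks inside the genes stayed 23 with merging or any overlap and were 22 with genes counted from their first start in the promoter table, an alternative chosen after seeing the data that left 7 peaks in Dlg2 (0.515 per 100 kb instead of 0.405) and 15 in Magi2. With the 1647 wider peaks they were 12 (9 in Magi2, 3 in Dlg2), by construction of a shorter list. The 1 flank peak, that of Dlg1, became 0 with the wider peaks, with flanks of 10 or 50 kb, and with the nearest coding gene only. Peaks with a neighbour inside Magi2 and Dlg2 numbered 8 at the distance planned for clustering, which joins gaps up to the 11.2 kb of Dlg2, 4 within 5 kb and 15 within 50 kb. Promoter windows with a match were 0 for TGANTCA and 4 for TGANNTCA. Counted inside the gene only, the guanylate kinase relatives with a peak fell from 4 to 2 and the polarity genes from 6 to 3, since flanks were dropped. Unknown read depth and 1 list for 3 replicates limit every count.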
